A study of Macaca fascicularis with 7 samples.

Results

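IFI35 and 8 other interferon-induced genes (NMI, ISG15, IFIT1, IFIT2, IFIT3, IFIT5, MX1 and IRF1) were followed through oocyte maturation in the cynomolgus monkey, Macaca fascicularis. They were taken by name from a table of 28161 genes, and all 9 had a row. IFI35 was chosen because of its levels, which were high in germinal vesicle (GV) oocytes and 0 in oocytes matured in the animal. Its levels in every group are therefore given as a description with no test. The other 8 were chosen as well-known relatives of it in the interferon response.

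Interferons are secreted proteins that warn cells of infection. They bind receptors on the cell surface, the receptors' JAK kinases phosphorylate STAT proteins, and STATs and interferon regulatory factors (IRFs) then switch on a large set of interferon-stimulated genes. The products of these genes bind foreign RNA, modify proteins or block viral replication, and many cells keep them at a low level until an interferon or a nucleic acid sensor calls on them. A fully grown oocyte makes little new RNA as it matures and works from stored transcripts, which it keeps, degrades or gives longer or shorter poly(A) tails.

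The study compared RNA from 3 kinds of wild-type oocyte. GV oocytes are immature and arrested in the first meiotic prophase, and 2 libraries were made from them. Metaphase II (MII) oocytes are mature and ready for fertilisation: 2 libraries came from oocytes matured in vivo (IVO MII) and 3 from oocytes matured in vitro (IVM MII). The labels mark GV and IVO MII as control and IVM MII as treated. No label gives the number of oocytes in a library, the animals they came from or their age, so the replicates may be technical and p-values speak only for the spread among these 7 libraries. RNA was captured by its poly(A) tail, so a change in tail length can alter a count at a constant number of molecules. The cDNA was copied to full length with template switching and amplified by PCR.

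Library totals ran from 22901970 to 29245733 counts. Levels are counts per 1000000 counts of the library (CPM) after TMM scaling, which corrects for differences in RNA composition. The 12 oocyte markers checked, such as GDF9 and the zona pellucida genes, all had counts in each group, with summed levels of 11852 to 14130 CPM in GV, 8712 to 10686 in IVO MII, against 8904 to 18042 in IVM MII. A sum over 15 markers of blood and immune cells was 26.2 to 34.5 CPM in GV and 0.322 to 5.30 CPM in MII libraries. Most of it was CSF1R, at 28.8 ± 5.76 CPM (SD, n = 2) in GV, 10 of the 15 were at 0 in both GV libraries, among them PTPRC, CD3E, CD14, LYZ and ITGAM, and 7 were at 0 in all libraries. TYROBP had 32 and 23 counts in GV and 0 in all 5 MII libraries, and CD68 had 10 and 11 in GV and 0 to 4 in MII. MS4A1 was higher on average in MII, with 10 and 9 counts in GV, 50 and 23 in IVO MII, and 3, 10 and 70 in IVM MII. PTPRC had 18 and 0 counts in IVO MII and 0, 0 and 6 in IVM MII. Markers of stroma, theca and endothelium summed to 1094 to 1221 CPM in GV and 74.0 to 128 in MII, most of it VWF in GV (1066 ± 105 CPM), with COL3A1 and LUM at 0 in every library. CDH5 had 75.4 and 58.6 CPM in GV, 29.4 and 55.9 in IVO MII, and 10.3 to 13.9 in IVM MII, and PECAM1 had 12.2 to 13.3 CPM in GV and 9.23 to 30.3 in MII. Markers of cumulus and granulosa cells went the other way, from 19.2 to 22.4 CPM in GV to 90.2 to 250 in MII, with AMH, CD44 and PTX3 at 0 in all 7 libraries. TNFAIP6 carried most of this sum in IVM MII, at 55.6 to 149 CPM against 7.20 and 13.8 in GV, with FSHR at 21.9 to 53.5 against 2.21 and 1.04. HAS2 was at 39.4 and 38.6 CPM in IVO MII against 7.95 and 4.17 in GV. Not all of the list rose. CYP19A1 had 17 and 6 counts in GV, 193 and 32 in IVO MII, and 0, 0 and 0 in IVM MII. STAR had 9 and 6 counts in GV and 0 in all 5 MII libraries. The part of these markers in the results below was not tested. The alignment files of the GV libraries lay in another folder than those of all MII libraries, so folder and stage cannot be told apart.

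IFI35 encodes a leucine zipper protein that interferon induces and that forms a complex with NMI. It lies on chromosome 16, bases 54777415 to 54786106, on the plus strand of the deposited table, and the build of that table is not given in the sources used here. Counts of IFI35 were 1294 and 1018 in the GV libraries, which is 39.1 and 32.2 CPM. Both IVO MII libraries and all 3 IVM MII libraries held 0 counts. The groups did not overlap, and no MII library contributed a single read. Against a floor of 3 counts in each library, the mean of 35.7 ± 4.91 CPM in GV (SD, n = 2) was at least 266-fold above IVO MII and at least 267-fold above IVM MII. If a library held several oocytes, fewer oocytes that hold a transcript and less of it in each oocyte cannot be told apart.

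A complete absence after such a level was rare among the genes of these oocytes. Of 4640 genes with a symbol and at least 20 CPM in GV, 1 had 0 counts in all 5 MII libraries, and it was IFI35. Among genes with at least 10 CPM in GV it was 2 of 6375, and with at least 5 CPM it was 9 of 7938. After IFI35, the genes with the fewest reads in MII among the 4640 were TMEM177, with 25 counts over the 5 libraries, and CYP4V2 and DGCR14 with 27 each. IFI35 was picked for this property, so the counts place it among other genes and test nothing.

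The nearest gene on each side of IFI35 had reads in every MII library. RPL27, which encodes a protein of the large ribosomal subunit and lies 3712 bases away, was at 21.2 and 30.6 CPM in GV, 87.1 and 52.7 in IVO MII, and 99.2, 77.9 and 49.3 in IVM MII. It rose against GV in IVO MII, by 1.43 on the log2 scale (SE 0.46, edgeR adjusted p = 0.0472), and by 1.54 in IVM MII (SE 0.43, edgeR adjusted p = 0.0245). VAT1, a gene for a vesicle membrane protein on the opposite strand, lies 147 bases from IFI35. It was at 17.5 and 13.5 CPM in GV and spread widely in MII, from 0.751 to 21.4 CPM, with log2 fold changes against GV of -0.30 (SE 1.04) in IVO MII and -2.17 (SE 0.95) in IVM MII that did not pass the test. RUNDC1, 16227 bases away, had 106 and 76 counts in GV, 0 and 18 in IVO MII, and 0, 9 and 0 in IVM MII. It passed the filter on low counts only through its GV libraries, so its levels are given with no test. PTGES3L, at 31395 bases, had 73 and 66 counts in GV, 0 and 0 in IVO MII, and 0, 0 and 3 in IVM MII. It passed the filter on low counts only through its GV libraries, so its levels are given with no test. IFI35 shares no exon bases with another row of the table.

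Among the 4639 other tested genes with a symbol and at least 20 CPM in GV, the 5 whose levels most resembled those of IFI35 over the 7 libraries were GPN1, CYTH2, WDR74, CYC1 and BRMS1. Likeness was Pearson's r on log2(CPM + 1), and it ran from 0.996 to 0.998. All 7 points come from libraries that differ mainly by stage, and 370 of the 4639 genes had an r above 0.95, so these values describe a shape that many genes have. GPN1, a gene for a GTPase that helps import RNA polymerase II, went from 301 ± 14 CPM in GV to 23.7 ± 1.69 in IVO MII and 20.2 ± 1.42 in IVM MII. BRMS1, of a histone deacetylase complex, went from 52.5 ± 5.06 CPM to 0.256 ± 0.0740 and 0.374 ± 0.332. CYTH2, which activates ARF GTPases, and WDR74, a ribosome assembly factor, had GV levels of 33.0 and 32.6 CPM, close to that of IFI35, but kept 1.08 to 1.10 and 0.416 to 0.553 CPM in MII. CYC1 encodes cytochrome c1 of the respiratory chain and went from 61.1 ± 4.18 CPM to 1.30 ± 0.614 and 1.31 ± 0.214. None of these 5 genes reached 0 in more than 1 library.

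**Figure D1:**
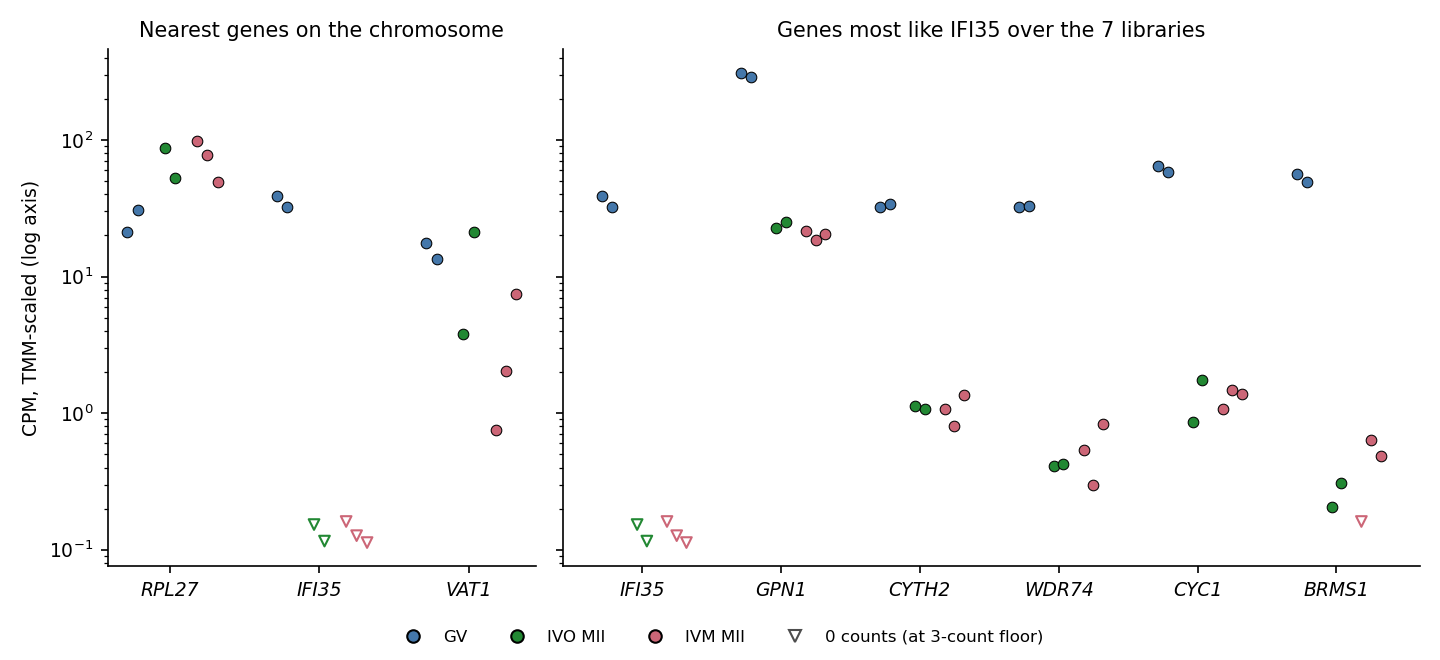
Level of IFI35 beside its nearest tested neighbours (left) and the 5 genes most like it (right). Each point is 1 library in CPM on a log axis, coloured by group, and open triangles mark 0 counts, drawn at the level of 3 counts. IFI35 has open triangles in all 5 MII libraries, while RPL27 is higher in MII and GPN1 keeps 18.7 to 24.9 CPM there.

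NMI, the partner of IFI35 (chromosome 12, bases 39920737 to 39940461), was close to absent from GV oocytes. It had 4 and 2 counts in GV, 16 and 0 in IVO MII, and 0, 40 and 0 in IVM MII. Reads thus came mainly from 1 library of each MII group, the groups overlapped, and the mean in GV was 0.0921 ± 0.0408 CPM (SD, n = 2). The log2 fold changes were 2.07 (SE 2.62) for IVO MII and 2.55 (SE 2.52) for IVM MII against GV. Without IVO MII replicate 1 the first of them became -4.37. NMI passed the filter on low counts only through 1 library of each MII group, so these values are given with no test. Per kilobase of transcript, the level in GV was 28.8 CPM for IFI35 and 0.0618 for NMI, so the transcripts of the partners were not present in like amounts.

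ISG15 encodes a ubiquitin-like protein that is attached to other proteins during an antiviral response, and lies on chromosome 1, bases 227410464 to 227411931. It had 0 counts in all 7 libraries, where 3 counts would be 0.0907 to 0.161 CPM. ISG15 did not pass the filter on low counts, and neither did IFIT1 and IFIT3. The IFIT genes encode proteins with tetratricopeptide repeats, several of which bind RNA with a foreign 5′ end. IFIT1 had 6 counts in GV replicate 2 and 0 elsewhere, and its row shares exon bases with that of its relative IFIT1B, which was at 0. IFIT3 had 11 counts in IVO MII replicate 1 and 0 elsewhere. With these, 6 of the 9 genes could be tested across the table, IFI35 among them.

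IFIT2 was counted in MII libraries alone, at a low level. It had 0 counts in both GV libraries, 7 and 66 in IVO MII, and 6, 10 and 20 in IVM MII. The groups did not overlap, and the highest MII library, IVO MII replicate 2, stood at 2.54 CPM. The means of 1.45 ± 1.55 CPM in IVO MII (SD, n = 2) and 0.499 ± 0.225 in IVM MII (SD, n = 3) were at least 15.6-fold and at least 5.38-fold above the 3-count floor of GV. IFIT2 passed the filter only through its MII libraries, where it was present, so it had to differ in order to be tested, and its levels are given with no test.

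IFIT5, whose product also binds RNA, was the only IFIT gene found in every library. It had 3.75 and 3.32 CPM in GV, 6.22 and 8.91 in IVO MII, and 3.11, 5.41 and 7.26 in IVM MII. Both IVO MII libraries lay above GV, and IVM MII overlapped GV. The log2 fold change against GV was 1.10 (SE 0.62) in IVO MII and 0.57 (SE 0.57) in IVM MII, and neither passed the test (edgeR adjusted p = 0.215 and 0.458).

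The 4 IFIT genes lie together on chromosome 9, with IFIT2 at bases 87861029 to 87868860, IFIT3 at 87884700 to 87896167, IFIT1 at 87928293 to 87954277 and IFIT5 at 87958674 to 87965811. They did not share a pattern: 0 or few counts in GV for IFIT1, IFIT2 and IFIT3 stood beside 124 and 105 counts for IFIT5. LIPA, the lysosomal acid lipase gene and the nearest tested gene below the cluster, was at 42.6 and 31.1 CPM in GV and rose by 2.12 in IVO MII (SE 0.54, edgeR adjusted p = 0.0198) and by 2.15 in IVM MII (SE 0.51, edgeR adjusted p = 0.0123) on the log2 scale. PANK1, a pantothenate kinase gene and the nearest tested gene above the cluster, was at 8.92 and 8.57 CPM in GV. It fell in IVO MII, at 2.55 and 2.89 CPM (-1.68, SE 0.52, edgeR adjusted p = 0.0404), and was at 9.78 to 17.0 CPM in IVM MII, where it did not pass.

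MX1, which encodes a dynamin-like GTPase that blocks RNA viruses (chromosome 3, bases 5298296 to 5333350), was also lower in MII, from a lower starting level than IFI35. Its GV libraries had 5.17 and 7.37 CPM, the IVO MII libraries 1.78 and 0.887, and the IVM MII libraries 1.13, 0.254 and 0.677. Every MII library lay below both GV libraries. MX1 fell in IVM MII, by 3.19 on the log2 scale (SE 0.82, edgeR adjusted p = 0.0170). In IVO MII the log2 fold change of -2.23 (SE 0.91) missed the threshold with edgeR (adjusted p = 0.0972) and passed it with limma voom (0.0381), DESeq2 (0.0280) and edgeR's newer fit (0.0237). The call in IVM MII was lost without GV replicate 1 (edgeR adjusted p = 0.0789) and without GV replicate 2 (0.139), and with a block of crossed IVO MII numbers chosen after seeing the data (0.0593).

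IRF1, a transcription factor that switches on interferon-stimulated genes (chromosome 6, bases 131473675 to 131481471), was the member with most reads in GV after IFI35. It had 24.0 and 14.3 CPM in GV, 1.83 and 7.90 in IVO MII, and 1.18, 3.42 and 8.57 in IVM MII. Every MII library lay below both GV libraries, and within each MII group the levels differed by more than 4-fold. The log2 fold changes against GV were -1.97 (SE 0.97, edgeR adjusted p = 0.159) in IVO MII and -2.12 (SE 0.85, edgeR adjusted p = 0.0812) in IVM MII, which did not pass. In IVM MII it passed with limma voom (0.0282), DESeq2 (0.0195), edgeR's newer fit (0.0337), a replicate block (edgeR, 0.0123) and without IVM MII replicate 3 (edgeR, 0.0313). With a block by the numbers in the alignment file names, chosen after seeing the data, IRF1 passed in both comparisons (edgeR adjusted p = 0.00983 for IVO MII, 0.00364 for IVM MII).

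**Figure D2:**
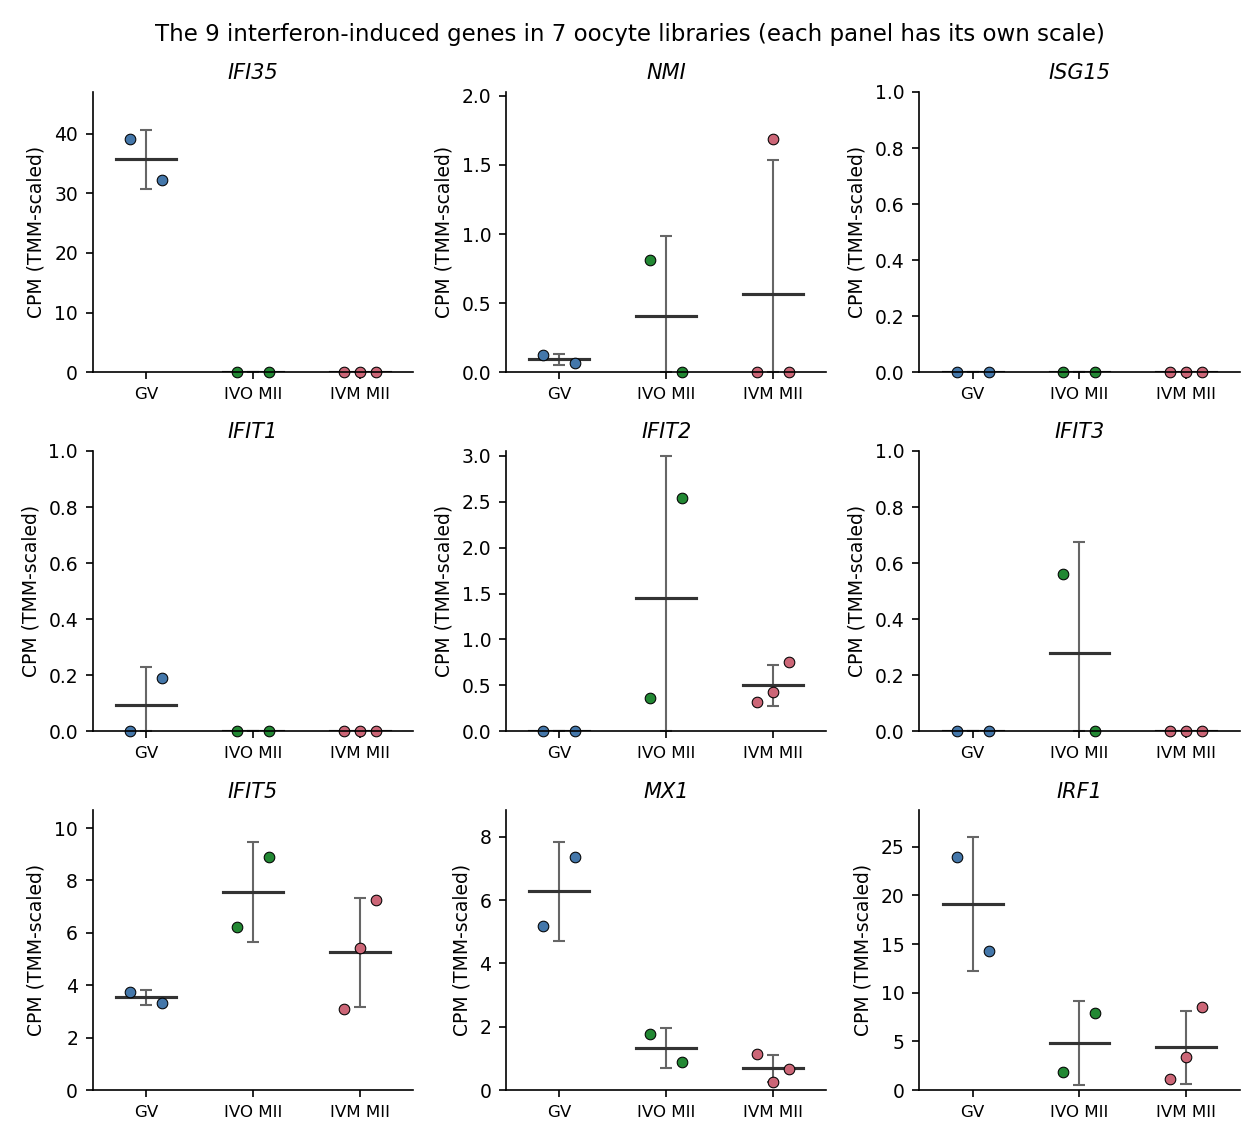
The 9 genes in 7 libraries, in CPM on a linear axis that starts at 0 and differs between panels. Points are libraries, horizontal lines are group means and bars are 1 SD, cut at 0. IFI35 is at 39.1 and 32.2 CPM in GV and at 0 in all MII libraries, MX1 and IRF1 are lower in every MII library than in GV, and ISG15 is 0 throughout.

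Of the 5 genes other than IFI35 that passed the filter, edgeR called IFIT2 in both comparisons with GV, a call that the filter fixed and from which nothing is read. NMI passed the filter only through its MII libraries, so nothing is read from its tests against GV either. Of IFIT5, MX1 and IRF1, 0 were called between IVO MII and GV, where 28.1% of all 16374 tested genes were called. In IVM MII against GV 1 was called (MX1, down), where 36.3% of all genes were. An unadjusted edgeR p under 0.05 between IVO MII and GV was found for MX1 alone of these. Both comparisons use the same GV libraries. Between IVM MII and IVO MII, 0 of the 5 were called by edgeR, DESeq2 or limma voom, and 0 had an unadjusted edgeR p under 0.05, while edgeR called 1.47% of all genes (0.892% higher and 0.58% lower in IVM MII). Their log2 fold changes there were 0.48 (SE 2.29) for NMI, -1.53 (SE 1.23) for IFIT2, -0.52 (SE 0.56) for IFIT5, -0.96 (SE 0.81) for MX1 and -0.15 (SE 0.86) for IRF1. With such errors the values do not show that the kinds of MII oocyte were alike. IFI35 was at 0 in both.

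Per kilobase of transcript, the order of levels in GV was IFI35 at 28.8 CPM, IRF1 at 9.21, MX1 at 2.18 and IFIT5 at 0.743, with the others under 0.1, and the ranges of these 4 did not overlap. In IVO MII, IRF1 at 2.35 and IFIT5 at 1.59 came first and overlapped between libraries, followed by MX1 at 0.465 and IFIT2 at 0.398, which overlapped as well. In IVM MII, IRF1 at 2.12 and IFIT5 at 1.10 again led and overlapped. The summed level of the 9 genes was 72.2 and 57.4 CPM in GV, against 11.6 and 20.2 in IVO MII and 5.74, 11.2 and 17.3 in IVM MII. IFI35, which was chosen for its levels, made up 39.1 and 32.2 CPM of the GV sums. That part of the drop was fixed by the choice, so the sums are a description only.

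Around these genes, 133 others of the interferon pathway were followed in 7 lists, of which 126 had a row, 74 passed the filter and 17 had 0 counts in every library. Between IVO MII and GV, 9 of the 74 rose and 10 fell, beside 14.6% of all genes that rose and 13.5% that fell. Between IVM MII and GV, 12 rose and 11 fell, beside 18.5% and 17.8% of all genes. Among the 11 were IRF3 and IRF2BP1, which passed the filter only through their GV libraries, so nothing is read from those calls. The median log2 fold change of the 74 was 0.15 in IVO MII and -0.03 in IVM MII, and that of all genes -0.16 and -0.10. The shares called, 25.7% and 31.1%, lay near those of all genes, 28.1% and 36.3%, which also stand beside each list below. Under RLE or upper quartile scaling the split in IVM MII turned to 8 up and 11 down. The counts rest on both GV libraries: without GV replicate 1, 3 and 7 of these genes were called in IVO MII and IVM MII, and without GV replicate 2, 8 and 8. In IVM MII 14 were called without IVM MII replicate 1 and 15 without replicate 2. Of the 16 calls named below for IVO MII, 14 were lost without GV replicate 1 and 10 without GV replicate 2, and of the 20 for IVM MII 13 and 12.

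The ligands and receptors came first in the pathway, with 12 of 14 genes in the table and 8 tested. In each comparison with GV, 1 rose and 1 fell, and the median log2 fold change was -0.75 in IVO MII and -0.67 in IVM MII. IFNGR2, a chain of the interferon gamma receptor, rose from 11.2 ± 0.610 CPM in GV to 41.0 ± 21 in IVO MII (1.88 on the log2 scale, SE 0.56, edgeR adjusted p = 0.0362) and to 50.1 ± 25 in IVM MII (2.16, SE 0.54, edgeR adjusted p = 0.0147). IFNL1, a type III interferon gene, fell in IVM MII from 5.87 ± 0.559 to 0.407 ± 0.368 CPM (edgeR adjusted p = 0.0245), a call that was also lost without IVM MII replicate 2. IFNGR2 lost its call in IVO MII without IVO MII replicate 2 as well. The type I receptor genes IFNAR1 and IFNAR2 were at 4.27 ± 1.16 and 14.7 ± 3.19 CPM in GV and were not called. IFNG, IFNK and IFNW1 had 0 counts in all libraries.

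Of the receptor kinases, STATs and IRFs, 11 of 17 were tested, with 2 up and 1 down in IVO MII and 4 up and 2 down in IVM MII, at median log2 fold changes of 0.81 and 0.33. The genes down in IVM MII were TYK2 and IRF3. IRF3 passed the filter only through its GV libraries, so nothing is read from its call. With IRF3 counted, the shares called were 27.3% in IVO MII and 54.5% in IVM MII, beside 28.1% and 36.3% of all genes. The kinases that serve the same receptors parted. TYK2 was at 28.6 and 24.9 CPM in GV, 2.55 and 3.08 in IVO MII, and 1.45, 3.72 and 1.69 in IVM MII, and it fell, with log2 fold changes of -3.25 (SE 0.63, edgeR adjusted p = 0.00703) and -3.54 (SE 0.54, edgeR adjusted p = 0.00237). JAK1 was at 14.2 and 17.8 CPM in GV, 53.6 and 58.6 in IVO MII, and 31.1, 38.8 and 30.8 in IVM MII. It rose by 1.81 (SE 0.37, edgeR adjusted p = 0.00874) and 1.07 (SE 0.34, edgeR adjusted p = 0.0386). JAK2 rose in IVM MII from 2.43 ± 0.448 to 11.2 ± 5.13 CPM (edgeR adjusted p = 0.0487). The IVM MII calls of JAK1 and JAK2 were weak: each was lost under RLE and upper quartile scaling and without IVM MII replicate 1 or 2, with adjusted p up to 0.312 and 0.244 over all alternatives.

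IRF2, which can oppose IRF1 at the same DNA sites, was higher in MII. It was at 25.7 and 28.6 CPM in GV, 175 and 237 in IVO MII, and 74.5, 65.9 and 148 in IVM MII, above GV in every MII library. It rose by 2.92 in IVO MII (SE 0.48, edgeR adjusted p = 0.00385) and by 1.83 in IVM MII (SE 0.43, edgeR adjusted p = 0.0125). IRF9, a DNA-binding protein of the interferon response, had at most 1 count in a library, and BATF, a binding partner of IFI35, had 0 in all.

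Among the nucleic acid sensors and their relay proteins, 8 of 20 were tested, and in each comparison with GV 1 rose and 1 fell, at medians of -0.19 and 0.21. DHX58, which encodes the RNA sensor LGP2, went from 23.1 and 17.7 CPM in GV to 1.89 and 0.964 in IVO MII and 1.34, 3.80 and 1.28 in IVM MII. It fell, with log2 fold changes of -3.84 (SE 0.78, edgeR adjusted p = 0.00835) and -3.25 (SE 0.65, edgeR adjusted p = 0.00591). TRAF6, a ubiquitin ligase of the relay, rose from 28.5 ± 1.66 CPM to 122 ± 19.4 in IVO MII (2.10, SE 0.34, edgeR adjusted p = 0.00373) and to 64.5 ± 5.64 in IVM MII (1.18, SE 0.31, edgeR adjusted p = 0.0186). RIGI, the sensor of short double-stranded RNA, was at 57.4 ± 9.04 CPM in GV, 242 ± 167 in IVO MII, against 158 ± 120 in IVM MII, and was not called. The sensor genes IFIH1 and ZBP1 and the adaptor gene STING1 had 0 counts in all 7 libraries.

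Of 44 further antiviral effectors, 21 were tested, with 3 up and 3 down in IVO MII and 3 up and 2 down in IVM MII, at medians of 0.22 and 0.76. ISG20, which encodes an exonuclease that degrades RNA, was far lower in MII. It had 80.1 and 119 CPM in GV, 2.80 and 3.47 in IVO MII, and 6.98, 7.23 and 6.58 in IVM MII, with no overlap. The log2 fold changes were -4.98 in IVO MII (SE 0.45, edgeR adjusted p = 0.00210) and -3.84 for IVM MII (SE 0.36, edgeR adjusted p = 0.00117), and both calls held in the 15 alternatives tested for it. EPSTI1, an interferon-response gene, rose from 344 ± 16.3 CPM to 1050 ± 85.6 in IVO MII (1.61, SE 0.32, edgeR adjusted p = 0.00729) and to 1199 ± 198 in IVM MII (1.80, SE 0.30, edgeR adjusted p = 0.00302).

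PLSCR1, which encodes a phospholipid scramblase with antiviral activity, rose from 6.79 ± 3.19 to 31.8 ± 3.55 and 32.0 ± 10.9 CPM (2.23 and 2.24, edgeR adjusted p = 0.0134 and 0.00862). EIF2AK2, the gene for the RNA-activated kinase PKR, rose in IVO MII from 6.17 ± 0.894 to 17.7 ± 2.56 CPM (1.52, SE 0.46, edgeR adjusted p = 0.0391). DDX60L, a helicase gene, rose in IVM MII from 50.9 ± 10.2 to 151 ± 53.2 CPM, and XAF1, which encodes a pro-apoptotic protein, fell there from 10.6 ± 1.63 to 0.544 ± 0.194 CPM (edgeR adjusted p = 0.0198 and 0.0291). The calls of EIF2AK2 and XAF1 were lost in 7 and 5 of 15 alternatives, among them those without any 1 library of the MII group compared, with adjusted p up to 0.273 and 0.118. Of the 40 effector genes with a row, 9 had 0 counts in all libraries, among them BST2, OASL, CXCL10, SAMD9, SAMD9L and ZC3HAV1, and 19 in all, RSAD2 and MX2 included, did not pass the filter.

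The machinery that attaches ISG15 was partly present although ISG15 itself was at 0. UBE2L6, the conjugating enzyme of this pathway, was at 85.5 and 76.3 CPM in GV, 3.31 and 3.24 in IVO MII, and 0, 3.25 and 3.65 in IVM MII. Every MII library lay below GV, and the log2 fold changes were -4.62 in IVO MII (SE 1.30, edgeR adjusted p = 0.0300) and -5.12 for IVM MII (SE 1.12, edgeR adjusted p = 0.00903). The first call was lost without either IVO MII library (adjusted p up to 0.122 over all alternatives). UBE2L6 was the only call among 4 tested genes of this list of 5, whose median log2 fold changes were -0.60 and -0.84 in the respective comparisons. The ligase gene HERC5 was at 64.3 ± 7.36 CPM in GV, at 18.8 and 33.3 in IVO MII and at 65.4 ± 30.3 in IVM MII, and USP18, which removes ISG15, at 6.22 ± 1.55, 6.71 ± 4.30 and 5.15 ± 1.37 CPM. The activating enzyme gene UBA7 had 1 count in 2 of the libraries and 0 in the others.

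Of 17 negative regulators, 13 were tested, with 2 up and 1 down in IVO MII and 2 up and 2 down in IVM MII, at medians of -0.08 and -0.05. TRIM21, which encodes a cytosolic antibody receptor and ubiquitin ligase, went from 452 and 442 counts (13.8 ± 0.217 CPM) in GV to 0.204 and 0.540 CPM in IVO MII and 0, 0.592 and 0.376 in IVM MII. It fell, with log2 fold changes of -5.18 (SE 1.25, edgeR adjusted p = 0.0169) and -5.37 (SE 1.06, edgeR adjusted p = 0.00578). The other gene down in IVM MII was IRF2BP1, which passed the filter only through its GV libraries, so nothing is read from its call. PTPN11, the gene for the phosphatase SHP2, rose from 0.742 ± 0.0234 CPM to 8.51 ± 5.11 in IVO MII (3.51, SE 0.67, edgeR adjusted p = 0.00677) and to 13.6 ± 4.57 in IVM MII (4.18, SE 0.67, edgeR adjusted p = 0.00267). CYLD, a deubiquitinase gene, rose from 12.1 ± 0.6 to 59.9 ± 29.2 and 28.2 ± 4.02 CPM (edgeR adjusted p = 0.00744 and 0.0469). The second call of CYLD was lost in 9 of 15 alternatives, without any 1 IVM MII library among them (adjusted p up to 0.263), and the first of TRIM21 without IVO MII replicate 1 (up to 0.0758).

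Of 16 genes of MHC class I antigen processing, several of which IRF1 switches on in other cells, 9 were tested, with 0 up and 2 down in IVO MII and 1 up and 2 down in IVM MII. The median log2 fold changes were 0.52 and -1.34, the latter -0.88 with genes at 0 in a group set to their bound. The proteasome activator gene PSME1 fell from 18.6 ± 6.60 CPM to 3.35 ± 0.0571 in IVO MII (-2.47, SE 0.56, edgeR adjusted p = 0.0128) and to 3.04 ± 0.584 in IVM MII (-2.61, SE 0.49, edgeR adjusted p = 0.00443). The chaperone gene CALR fell from 106 ± 17.8 to 21.5 ± 3.05 and 28.6 ± 21.9 CPM (edgeR adjusted p = 0.0382 and 0.0375). B2M, the light chain of class I molecules, rose in IVM MII from 19.1 ± 8.67 to 108 ± 73.4 CPM (2.51, SE 0.76, edgeR adjusted p = 0.0324), with 175, 29.7 and 121 CPM in the 3 libraries. The B2M call was lost without IVM MII replicate 1 or 3, and those of CALR without either IVO MII library and without IVM MII replicate 1 or 2, with adjusted p up to 0.179 for B2M and 0.153 and 0.161 for CALR over all alternatives. TAPBP had 0 counts throughout.

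**Figure D3:**
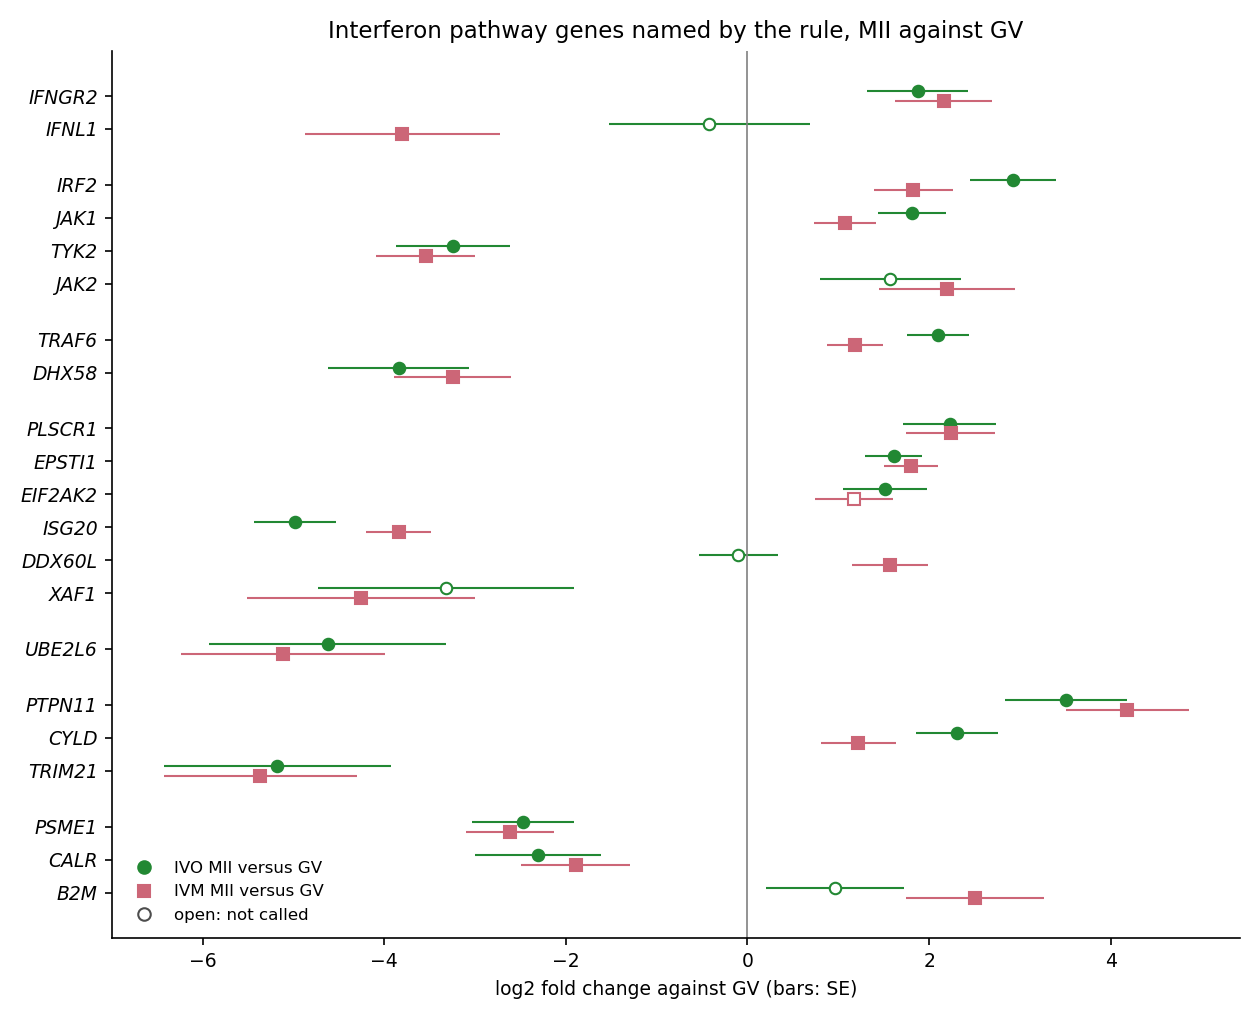
Log2 fold change against GV of the 21 pathway genes named by the rule, grouped by role from ligands and receptors (top) to antigen processing (bottom). Circles are IVO MII, squares IVM MII, bars are SEs and open symbols did not pass the test. TYK2, DHX58, ISG20, UBE2L6 and TRIM21 lie left of 0 in both comparisons, which share the GV libraries, and IRF2, JAK1, TRAF6 and PTPN11 lie right of it.

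Between IVM MII and IVO MII, 1 of the 74 pathway genes was called, or 1.35%, beside 1.47% of all genes. It was GBP2, which encodes a guanylate-binding protein induced by interferon gamma and is named after its values were seen. Counts were 44, 41 and 138 in IVM MII and 0 and 0 in IVO MII, which makes it at least 23.0-fold higher in IVM MII, at an edgeR adjusted p of 0.0486. GBP2 was not at 0 in GV, with 64 and 22 counts. The call was lost in each fit that left out 1 library (edgeR adjusted p = 0.0688 to 0.141), except without IVM MII replicate 3 (0.0416). It was also lost with only the MII groups fitted (0.0808) and under upper quartile scaling (0.0504), where the split of calls was 0 up and 1 down. Against GV, GBP2 was at least 9.80-fold lower in IVO MII (edgeR adjusted p = 0.0126). Its log2 fold change of 1.23 (SE 0.96) in IVM MII against GV did not pass (edgeR adjusted p = 0.344).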

How the data were processed

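The authors deposited raw counts per gene for 7 libraries, with no normalization. The submitters' processing notes name featureCounts 2.0.1, Bowtie2 2.4.5, Trim Galore 0.6.7 and SAMtools 1.15.1, beside DESeq2. Not given in the sources used here were genome build, strand setting and treatment of multiply matching reads. Reads over introns are not split by Bowtie2, and genes with near-identical copies, overlaps or antisense partners are uncertain. After removal of 10 broken lines of 3 long genes, 28161 rows remained. PLSCR1, GBP1, CYP19A1 and CYP17A1 were found by their RefSeq gene identifiers (assembly T2T-MFA8v1.1). Members and lists were chosen with earlier results of these data known.

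All 7 libraries entered 1 fit in edgeR 4.0.16 (R 4.3.3; TMM, filterByExpr, glmQLFit with default settings, glmQLFTest), because groups of 2 or 3 need a shared spread. Tests were two-sided, with Benjamini-Hochberg adjustment over 16374 genes and calls at 0.05. Values after ± are SDs. A group at 0 was set to 3 counts per library. Counting error alone enters these floors. PCR copies are not independent molecules, so the folds given as "at least" may be too high. Genes named per list were the called genes with the largest changes, up to 3 in each direction, with at least 5 CPM in the higher group. Alternatives were DESeq2 1.42.0, limma voom 3.58.1, the newer edgeR fit, other scalings, no filter, 2 groups only, a replicate block and each library left out.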

Additional observations from a re-analysis of the deposited data

How the results depend on the processing

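Nothing in the labels says what the replicate numbers share, and the same-numbered GV and IVO MII libraries deviated in opposite directions (correlation -0.23 across genes), while the first of IVO MII and IVM MII correlated at 0.35 and the second at -0.18. IVO MII replicate 2 has the number 3 in its alignment file name, and it correlated at 0.41 with IVM MII replicate 3. Deviations of 2 libraries from their group mean mirror each other. These correlations are therefore not separate observations and do not show which libraries pair. With a replicate block, the pathway genes called were 22, 22 and 7 for IVO MII versus GV, IVM MII versus GV and IVM MII versus IVO MII, against 19, 23 and 1 without it, and the called genes other than IFI35 were 0, 2 and 0 against 1, 2 and 0. With the IVO MII numbers crossed, a choice made after seeing the data, they were 22, 20 and 5, and 0, 1 and 0. A block by the alignment file numbers, also chosen after seeing the data, gave 22, 26 and 4, and 1, 2 and 0, with 0 of the latter higher in MII. Between IVM MII and IVO MII the pathway count was 12 with DESeq2, 3 with limma voom, 4 with the newer edgeR fit, 2 with RLE scaling, 4 with no filter and 0 with only the 2 groups compared, and 0 to 5 with a library left out. Leaving out 1 library gave 3 to 25 pathway genes for IVO MII versus GV and 7 to 24 for IVM MII versus GV. Of the 5 tested genes other than IFI35 (IFIT2 included, whose call the filter fixed), limma voom, DESeq2 and edgeR's newer fit each called 2 for IVO MII versus GV and the fit of only those groups 0, with 0 to 1 when a library was left out. For IVM MII versus GV the fit of only those groups called 1, and 0 to 2 were called with a library left out. The cause of these changes was not tested. A fit without 1 library of a pair assumes that the lone one varies like the other groups.

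Signs changed in uncalled values only. NMI had -0.11 (IVM MII versus GV) and -0.28 (IVM MII versus IVO MII) with limma voom, and with a library left out ran from -4.37 to 3.07 for IVO MII versus GV and from -0.61 to 6.92 for IVM MII versus IVO MII. In the last comparison IFIT2 ran from -2.33 to 0.40 and IRF1 from -1.09 to 1.18, reaching 0.30 when IVM MII replicate 1 was left out and 0.0032 when replicate 2 was. Of the 16 and 20 calls named for IVO MII and IVM MII against GV, 2 and 6 held in the 15 alternatives tested for each. They were ISG20 in both, IRF2 in IVO MII, and TYK2, EPSTI1, UBE2L6, PTPN11 and TRIM21 in IVM MII. The median over all genes in IVM MII versus GV went from -0.10 to -0.24 under RLE and -0.21 under upper quartile scaling, which also moved that of IVM MII versus IVO MII from 0 to -0.11. Under both, the pathway calls that were higher in IVM MII than in GV went from 52.2% to 42.1%. The mean level of IFI35 in GV ran from 30.7 to 37.6 CPM with a library left out.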

Other observations

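Reads were counted in these oocytes at a low level in the row of IFNB1, the type I interferon gene that infected cells make first. The row lies on chromosome 15, bases 57663799 to 57668770, and is 4972 bases long. With strand setting and treatment of multiply matching reads not given, the reads need not be IFNB1 transcripts. IFNB1 is named here after its values were seen. The GV libraries had 126 and 121 counts (3.82 ± 0.0109 CPM), both IVO MII libraries had 0, and the IVM MII libraries had 42, 23 and 14 (0.526 to 2.25 CPM). IFNB1 was at least 28.4-fold lower in IVO MII than in GV (edgeR adjusted p = 0.00661, and 0.00632 to 0.0385 with 1 library left out), while the log2 fold change of -1.61 (SE 0.90) in IVM MII against GV did not pass (edgeR adjusted p = 0.196). Between IVM MII and IVO MII it was at least 9.31-fold higher, at an edgeR adjusted p of 0.0600.

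PML, which encodes the scaffold of a nuclear body that interferon enlarges, is likewise named after its values were seen. It had 0 counts in both IVO MII libraries, with 19 and 48 counts in GV and 21, 17 and 9 in IVM MII. It was at least 7.79-fold lower in IVO MII than in GV (edgeR adjusted p = 0.0250). That call was lost without GV replicate 1 (0.0957), GV replicate 2 (0.171), IVO MII replicate 1 (0.0675) or IVO MII replicate 2 (0.0633) and with a replicate block (0.0686). Between IVM MII and IVO MII it was at least 5.42-fold higher and did not pass (edgeR adjusted p = 0.0998).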
